A study of Mus musculus with 32 samples.

Results

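*Ttr*, *Folr1*, *Clic6*, *Sostdc1*, *Kl*, *Kcnj13*, *Slc4a5*, *Otx2*, *Enpp2* and *F5* are 10 genes known for their expression in the epithelium of the choroid plexus, and they were followed here through brain arteries of 32 mice. The 10 genes were picked from 55357 in the read count table with earlier results of the same libraries known, so their measured levels chose them and the levels below are a description. All 10 genes were matched by Ensembl identifier, and all passed the filter on low counts in each of the comparisons. There were 8 mice in each of 4 groups and 1 library per mouse. *Notch3+/+* mice and *Notch3-/-* mice, which lack a working *Notch3* in the whole animal, were 3 months old. TgNotch3R169C mice, which model CADASIL and carry an artificial chromosome with mutant rat *Notch3* beside their own *Notch3*, and WT mice, their controls without the transgene, were 12 months old. Both lines had been crossed back to C57BL/6, no mouse was treated, and the sex of each mouse was not used here. Arteries were dissected from the brain in cold PBS, and stranded libraries were made from poly(A) RNA. Read counts are given as CPM, reads of a gene scaled to a common library size after TMM normalization.

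The choroid plexus hangs in the ventricles of the brain as a fold of fenestrated capillaries covered by a single layer of cuboidal epithelium. This epithelium secretes the cerebrospinal fluid through ion transporters and channels on its faces, and it releases carrier proteins and signalling molecules into the fluid. Its cells are known for making transthyretin in large amounts, while arteries of the brain surface consist of endothelium and smooth muscle with fibroblasts of the leptomeninges around them.

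The libraries held between 20289487 and 54481934 counts (median 33013620). *Notch3* was at 65.99 to 97.4 CPM in *Notch3+/+* mice and 13.6 to 18.7 CPM in *Notch3-/-* mice, and at 60.2 to 84.9 CPM in WT mice and 107.6 to 222.5 CPM in TgNotch3R169C mice, so no mutant mouse fell within the range of its own controls. The counts do not separate rat from mouse *Notch3*. The markers of the labelled tissue were present in every library: the summed level of 6 smooth muscle genes was 1014 to 3975 CPM and that of 4 endothelial genes was 1014 to 1602 CPM. The labels do not say which vessels were taken or whether the plexus was removed.

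Transthyretin (*Ttr*, ENSMUSG00000061808), the carrier of thyroxine and of retinol-binding protein, separated the libraries into 2 sets with nothing between them. It was at 45.3, 39.7, 79.5, 34.1, 318, 45.1, 14.1 and 27.4 CPM in *Notch3+/+* replicates 1 to 8. It was at 22.4, 19.0, 19.2, 24, 18.3, 22.3, 20.4 and 22553 CPM in *Notch3-/-* replicates 1 to 8. All *Notch3+/+* mice and 7 of 8 *Notch3-/-* mice were therefore low, and *Notch3-/-* replicate 8 alone was high. TgNotch3R169C replicates 1 to 8 had 28.5, 54, 128, 47.2, 12417, 94.2, 15.2 and 9014 CPM. WT replicates 1 to 8 had 137, 7871, 329, 23172, 12616, 11937, 77 and 19.4 CPM. High libraries were thus found in 2 of 8 TgNotch3R169C and 4 of 8 WT mice, and the ranges of the 4 groups overlapped. In the 7 high libraries *Ttr* took 0.773 to 2.21% of all counts, and its lowest level there was 23.9 times the highest level in the other 25. A limit of 1000 CPM, set after these values had been seen, is used below to name the 7 libraries. The nearest libraries on its 2 sides were at 329 and 7871 CPM.

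**Figure D1:**
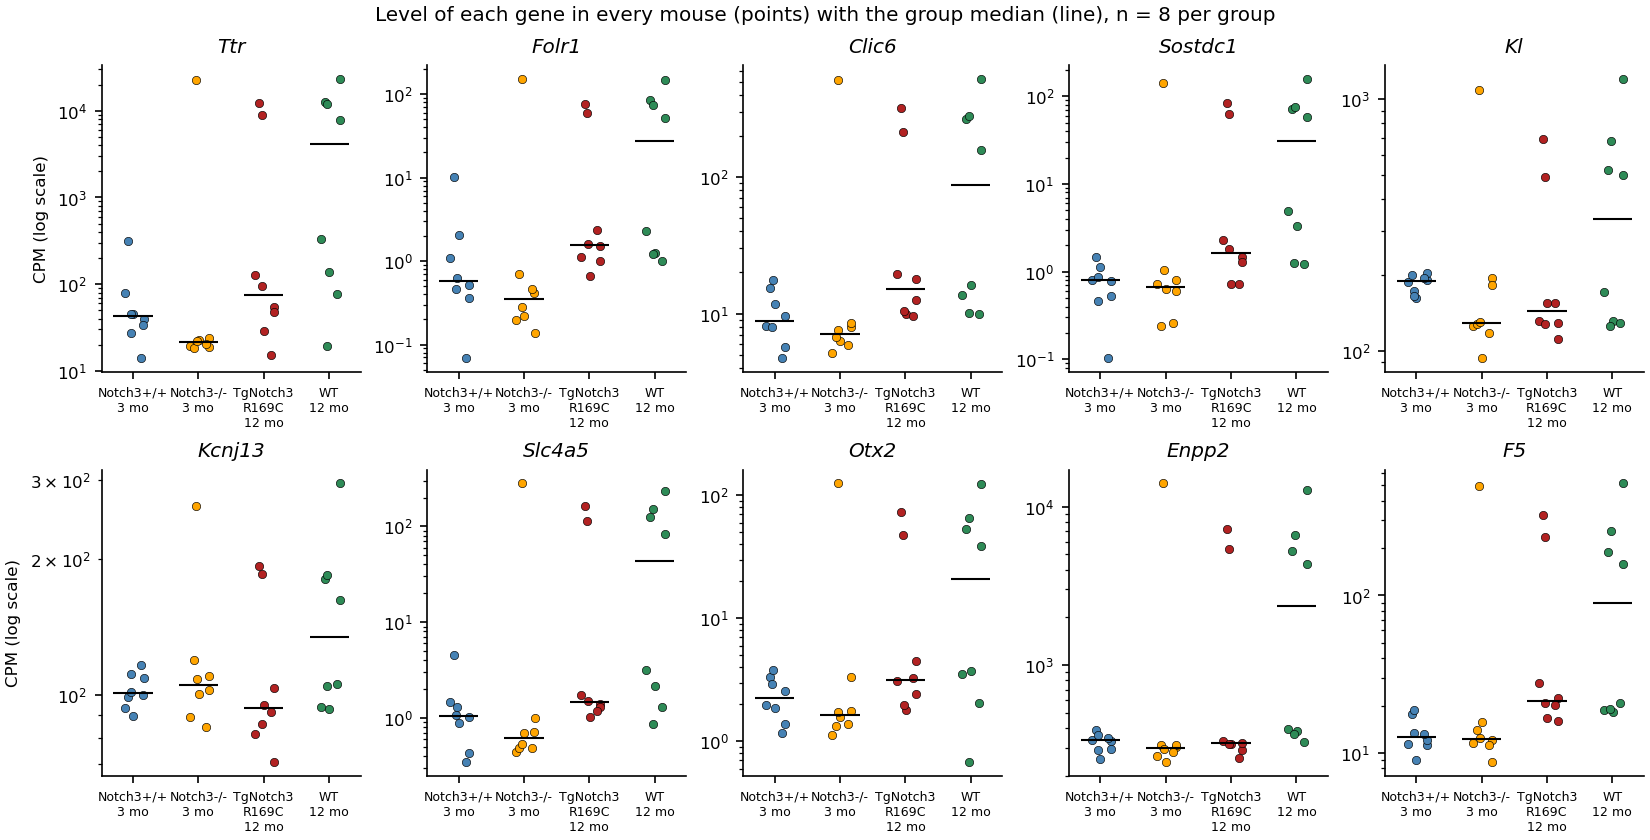
CPM of each of the 10 genes (log axis, a separate scale per gene) in every mouse, shown as points by group, with a line at the group median (n = 8 mice per group). The same 7 libraries, 1 *Notch3-/-*, 2 TgNotch3R169C and 4 WT, lie at the top for every gene, and the gap is widest for *Ttr* and *Slc4a5* and narrowest for *Kcnj13*.

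The 7 libraries were above the other 25 for all 10 genes, with no overlap. *Ttr* fixed the division and the genes were chosen for varying with it, so no test was made. For comparison, 418 of 18507 genes with enough counts in the 4 groups (2.26%) had all 7 libraries above all 25. A higher level in bulk tissue can mean more epithelial cells or more RNA per cell, and these cannot be told apart.

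Among the other secreted or shed proteins, *Enpp2* (autotaxin, the enzyme that makes lysophosphatidic acid) was at 243 to 392 CPM (median 316) in the 25 libraries and 4314 to 14002 CPM (median 6624) in the 7. Its level in the arteries was well above 0 in every library, with 6724 counts in the lowest. *Sostdc1*, a secreted antagonist of BMP and Wnt signalling, was nearly absent from the 25 libraries, at 0.104 to 4.96 CPM (median 0.810), and was at 57.6 to 156 CPM (median 74.8) in the 7. *F5*, the coagulation factor V gene, was at 8.76 to 28.1 CPM (median 15.8) against 159 to 514 CPM (median 258). *Kl* (Klotho, a coreceptor of FGF23 that is also shed into the fluid) was at 93.5 to 203 CPM (median 155) against 490.0 to 1199 CPM (median 682), so it had a substantial level in every mouse.

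The transport genes behaved in 2 ways. *Folr1*, the folate receptor that carries folate into the cerebrospinal fluid, was at 0.069 to 10.3 CPM (median 0.699) in the 25 libraries and 51.9 to 151 CPM (median 75.5) in the 7. *Slc4a5*, a sodium bicarbonate cotransporter of the epithelium, was at 0.345 to 4.51 CPM (median 1.01) against 83.2 to 280.4 CPM (median 152). *Clic6*, of the chloride intracellular channel family, was at 4.73 to 19.5 CPM (median 9.61) against 158 to 521 CPM (median 278). These 3 genes were low in the arteries, with as few as 2 counts of *Folr1* in 1 library. *Kcnj13*, the inward rectifier potassium channel Kir7.1, was different, at 70.7 to 119 CPM (median 99.99) in the 25 libraries and only 163 to 295 CPM (median 185) in the 7.

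*Otx2*, a homeodomain transcription factor needed to form the choroid plexus, was at 0.675 to 4.52 CPM (median 1.98) in the 25 libraries and 38.3 to 125 CPM (median 65.7) in the 7. It was the only regulator among the 10 genes, so their promoters were searched for TAATCC, the core sequence bound by *Otx2*, on either strand (GGATTA on the other strand). The RefSeq table of promoters (GRCm38.p6, 250 bases before to 50 after each start) held 5 of the 10 genes, *Kl*, *Kcnj13*, *Slc4a5*, *Otx2* and *F5*, with 8 windows, and the motif was in 1 of the 8. Of all 32851 windows in the table, 2320 (7.06%) held it. The 250 bases before the start are shown for the *Otx2* window with the match, for *Slc4a5*, whose level in the 7 libraries was furthest above that of the 25 among these 5 genes, and for *Kcnj13*, whose level was closest. Each is written 5′ to 3′ on the strand of the gene, and capitals mark the match.
*Otx2*, chr14:48665110-48665359, minus strand: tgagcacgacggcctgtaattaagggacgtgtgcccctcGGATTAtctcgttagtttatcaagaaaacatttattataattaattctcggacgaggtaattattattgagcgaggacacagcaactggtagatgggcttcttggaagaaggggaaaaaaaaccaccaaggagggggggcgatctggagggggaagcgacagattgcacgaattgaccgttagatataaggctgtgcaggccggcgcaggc
*Slc4a5*, chr6:83237125-83237374, plus strand: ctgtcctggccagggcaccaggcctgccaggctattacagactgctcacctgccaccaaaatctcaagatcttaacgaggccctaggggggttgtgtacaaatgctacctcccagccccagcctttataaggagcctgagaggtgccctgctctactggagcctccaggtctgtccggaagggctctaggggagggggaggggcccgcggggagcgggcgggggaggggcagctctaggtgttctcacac
*Kcnj13*, chr1:87394730-87394979, minus strand: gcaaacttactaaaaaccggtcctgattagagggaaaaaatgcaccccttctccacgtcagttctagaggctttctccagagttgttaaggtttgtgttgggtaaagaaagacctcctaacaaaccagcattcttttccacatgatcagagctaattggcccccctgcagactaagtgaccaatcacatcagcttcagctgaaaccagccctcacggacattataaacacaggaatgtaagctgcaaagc
The match in *Otx2* lies on the strand opposite to the gene and begins 211 bases before the start. The windows without a match say only that these letters are not within them.

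By group, the medians of the genes without a base level were highest in WT mice, where 4 of 8 libraries were high. *Folr1* was at 0.069 to 10.3 CPM (median 0.573) in *Notch3+/+*, 0.138 to 151 CPM (median 0.349) in *Notch3-/-*, 0.667 to 75.5 CPM (median 1.56) in TgNotch3R169C and 1.01 to 148 CPM (median 27.1) in WT mice. *Sostdc1* was at 0.104 to 1.48 CPM (median 0.794), 0.242 to 142 CPM (median 0.676), 0.724 to 83.5 CPM (median 1.64) and 1.21 to 156 CPM (median 31.3) in the same order. *Slc4a5* was at 0.345 to 4.51 CPM (median 1.04), 0.445 to 280.4 CPM (median 0.615), 1.01 to 164 CPM (median 1.47) and 0.868 to 236 CPM (median 43.2). In these 3 genes the ranges of all 4 groups overlapped, and the *Notch3-/-* median was the lowest of the 4 although that group held 1 of the highest libraries.

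The genes with an intermediate base followed the same order of groups. *Clic6* was at 4.73 to 17.5 CPM (median 8.84) in *Notch3+/+*, 5.18 to 511 CPM (median 7.14) in *Notch3-/-*, 9.54 to 318 CPM (median 15.2) in TgNotch3R169C and 9.90 to 521 CPM (median 87.1) in WT mice. *Otx2* was at 1.17 to 3.79 CPM (median 2.26), 1.11 to 125 CPM (median 1.64), 1.80 to 73.0 CPM (median 3.16) and 0.675 to 124 CPM (median 21.0) in the same order, and the lowest WT mouse lay under every other library. *F5* was at 9.11 to 18.8 CPM (median 12.7), 8.76 to 494 CPM (median 12.3), 15.9 to 325 CPM (median 21.5) and 18.1 to 514 CPM (median 90.0). In the 12-month mice with little *Ttr*, *F5* was at 15.9 to 28.1 CPM (6 TgNotch3R169C) and 18.1 to 20.8 CPM (4 WT). In the 3-month mice with little *Ttr* it was at 8.76 to 18.8 CPM (15 mice), so the ranges overlapped slightly. Age and mouse line differ together here and cannot be told apart.

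The genes set apart below for their base level were present in every mouse. *Enpp2* was at 256 to 388 CPM (median 334) in *Notch3+/+*, 243 to 14002 CPM (median 298) in *Notch3-/-*, 257 to 7261 CPM (median 321) in TgNotch3R169C and 325 to 12656 CPM (median 2353) in WT mice. *Kl* was at 162 to 203 CPM (median 189), 93.5 to 1082 CPM (median 129), 111 to 691 CPM (median 143) and 126 to 1199 CPM (median 335) in the same order. *Kcnj13* was at 89.4 to 116 CPM (median 100.6), 84.7 to 263 CPM (median 105), 70.7 to 193 CPM (median 93.2) and 92.9 to 295 CPM (median 134). By their means, WT mice were highest and *Notch3+/+* mice lowest for all 10 genes. The means of *Notch3-/-* and TgNotch3R169C mice, between them, differed by less than their spread, as for *Ttr* (2837 ± 7966 and 2725 ± 5015 CPM, SD, n = 8 each).

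Levels of different genes were compared as RPKM, CPM divided by the exonic length in kilobases from the GENCODE vM21 annotation. In the 25 libraries the highest median was that of *Kcnj13* (78.7 RPKM), followed by *Enpp2* (54.7), *Ttr* (28.7) and *Kl* (16.6), and the other 6 genes were between 0.175 and 2.45 RPKM. In the 7 libraries the order was *Ttr* (10470 RPKM), *Enpp2* (1146), *Kcnj13* (146), *Kl* (73.1), *Clic6* (71.0), *Sostdc1* (42.0), *F5* (34.7), *Folr1* (32.9), *Slc4a5* (26.2) and *Otx2* (15.6). The ratio of the median of the 7 libraries to that of the 25 ran from 1.85 for *Kcnj13* and 4.40 for *Kl* to 150 for *Slc4a5* and 365 for *Ttr*.

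A base level was read for each gene as the intercept of a straight line of its CPM on that of *Ttr* over the 32 libraries, as a percentage of the gene's mean CPM. *Kcnj13* (79.8%, intercept 97.8 CPM) and *Kl* (52.5%, 147 CPM) were over 50% and were set apart as genes that the dissected arteries hold when *Ttr* is low. *Enpp2* was set apart with them for its known expression outside the plexus, although its intercept of 244 CPM was only 12.3% of its mean. *F5* (17.2%), *Clic6* (10.9%) and *Otx2* (9.41%) followed, and *Sostdc1* (3.76%), *Folr1* (3.60%) and *Slc4a5* (2.28%) were lowest. The line is drawn mainly by the 7 libraries and describes these mice only.

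**Figure D2:**
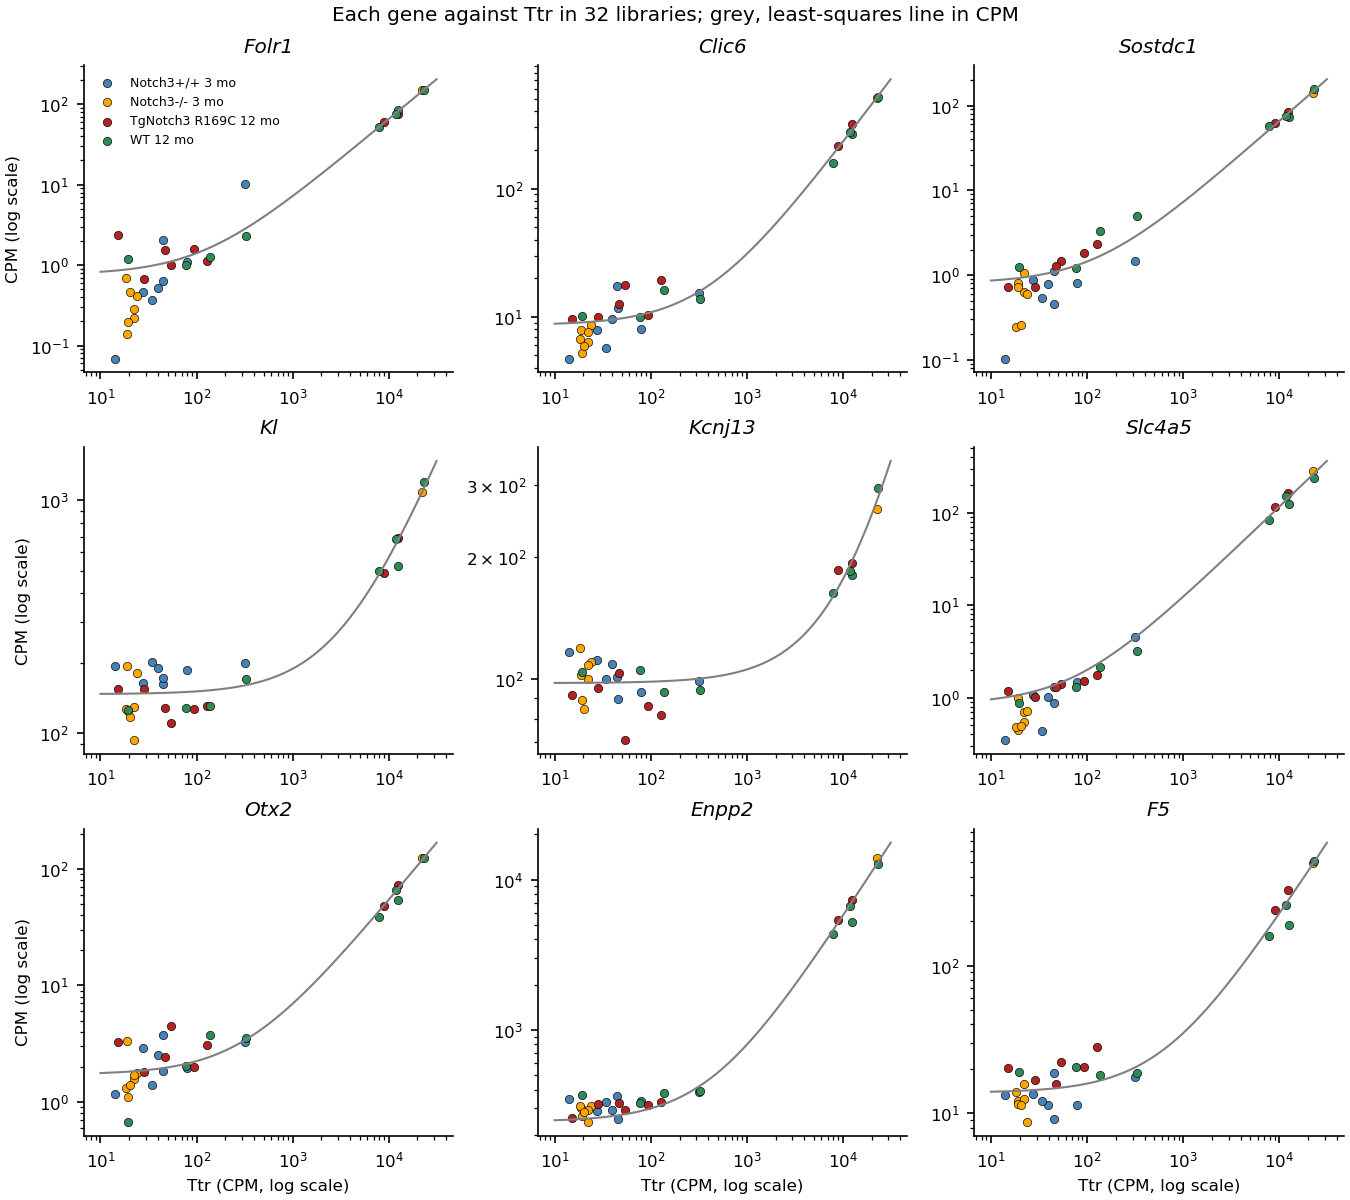
CPM of 9 genes against CPM of *Ttr* (both axes log), 1 point per library coloured by group, with the least-squares line fitted in CPM (curved on log axes). Above 1000 CPM of *Ttr* the 7 libraries scatter about the line, and WT replicate 5 lies under it for *Enpp2* and *F5*. Below 1000 CPM of *Ttr*, *Kl*, *Kcnj13* and *Enpp2* are at 93.5 to 203, 70.7 to 119 and 243 to 392 CPM.

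In the 7 libraries *Ttr* spanned 7871 to 23172 CPM. The proportion of each other gene to *Ttr* had a coefficient of variation of 3.65% (*Folr1*) to 22.3% (*Kcnj13*). *Folr1* was at 0.648% ± 0.0237 of the CPM of *Ttr* (SD, n = 7), a coefficient of variation of 3.65%. *Clic6* was at 2.27% ± 0.184, *Sostdc1* at 0.658% ± 0.0515, *Otx2* at 0.524% ± 0.0532 and *Slc4a5* at 1.17% ± 0.141, with coefficients of variation of 7.82 to 12.1%. *Enpp2* was at 55.2% ± 6.59 and *F5* at 2.19% ± 0.381, with coefficients of variation of 11.9 and 17.4%. With the median CPM of the 25 other libraries subtracted as the base, *Kl* was at 4.05% ± 0.567 and *Kcnj13* at 0.771% ± 0.10. That median, not the intercept given above, is the base in all the proportions to *Ttr*.

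The proportions were not equal between libraries. WT replicate 5 had the lowest value of the 7 for 7 of the 9 genes, among them *Enpp2* (41.7% against 54.6 to 62.1% in the other 6), *F5* (1.5% against 2.02 to 2.62%), *Otx2* (0.425% against 0.487 to 0.588%) and *Kl* above its base (2.91% against 3.71 to 4.51%). It was also lowest for *Sostdc1* (0.574%), *Slc4a5* (0.983%) and *Kcnj13* above its base (0.641%). The exceptions were *Clic6*, lowest in WT replicate 2 (2.01%, against 2.10% in WT replicate 5), and *Folr1*, lowest in TgNotch3R169C replicate 5 (0.608%, against 0.668% in WT replicate 5). The 2 TgNotch3R169C libraries had the highest values for *F5*, 2.62 and 2.62%, against 1.5 to 2.22% in the 4 WT libraries. With 2 and 4 libraries chosen by their *Ttr* no test was made. These ratios rest on CPM and cannot say whether *Ttr* or the other gene differed.

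**Figure D3:**
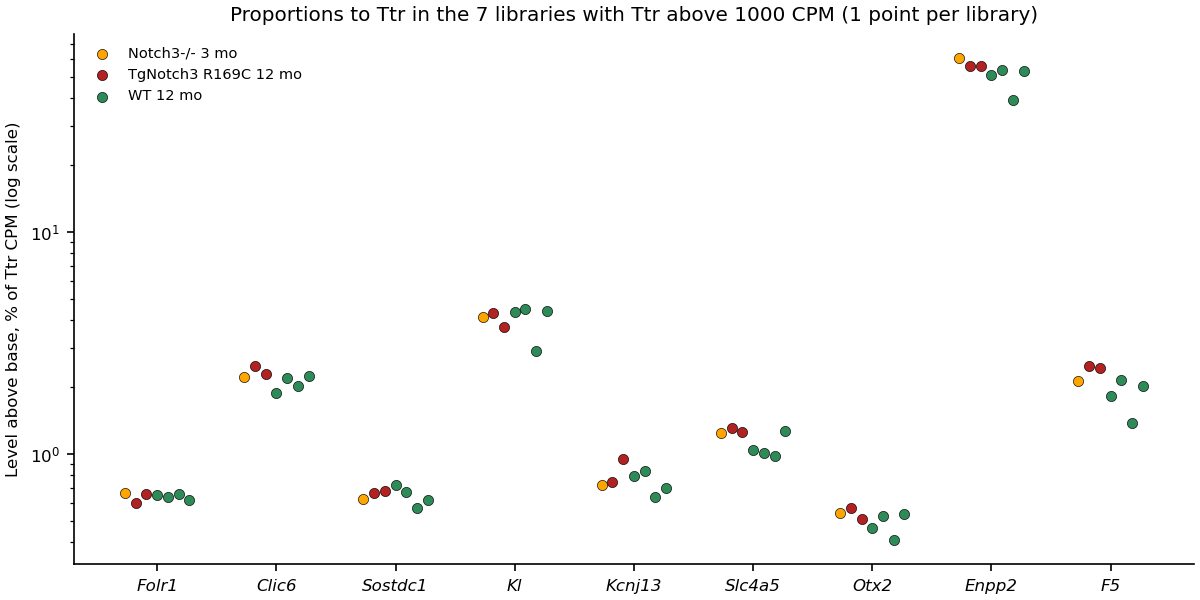
Level of 9 genes above their base (the median of the 25 other libraries) in the 7 libraries with more than 1000 CPM of *Ttr*, as a percentage of the CPM of *Ttr* (log axis), 1 point per library coloured by group. *Folr1* is the tightest, at 0.603 to 0.666%, while *Enpp2* runs from 39.1 to 60.7% with WT replicate 5 lowest.

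Within the 25 libraries some members still varied with *Ttr*. There, log2 CPM of *Slc4a5* followed that of *Ttr* with Pearson's r of 0.89 and Spearman's rho of 0.84 (r = 0.80 without the 2 libraries farthest from the median *Ttr*). *Sostdc1* had r of 0.79 and rho of 0.74, *Folr1* 0.71 and 0.61, and *Clic6* 0.70 and 0.74. *Enpp2* had r of 0.60 and rho of 0.50, *Otx2* 0.55 and 0.59, and *F5* 0.45 and 0.37. *Kl* (r = 0.13, rho = 0.13) and *Kcnj13* (r = -0.34, rho = -0.40) did not follow *Ttr* there. The 25 points come from 4 groups and share their dissection and sequencing, and several of the counts behind them were under 20, so the values are a description. No value was taken over all 32 libraries here because they fall into 2 sets.

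The comparison of *Notch3-/-* with *Notch3+/+* mice asks what changes in arteries without *Notch3*. None of the 10 genes passed edgeR's quasi-likelihood test at an adjusted p of 0.05, where 0.649% of 17714 genes did. All 10 log2 fold changes were nonetheless positive (median 2.80, against -0.0011 over all genes). Of the 10, 8 had an unadjusted p under 0.05, as did 1363 of all 17714 genes. *Ttr* had a log2 fold change of 5.23 (SE 1.79, edgeR adjusted p = 0.370) and *Sostdc1* one of 4.56 (SE 1.41, edgeR adjusted p = 0.253), both carried by *Notch3-/-* replicate 8. Without that library all 10 log2 fold changes were negative, and 0 of the 10 genes passed where 0.549% of 17849 did. An unadjusted p under 0.05 was found for 6 of the 10 and for 1524 of all 17849 genes. *Ttr* was then at -1.86 (SE 0.537, edgeR adjusted p = 0.190), *Folr1* at -2.46 (SE 0.834, adjusted p = 0.326) and *Slc4a5* at -1.14 (SE 0.449, adjusted p = 0.458). The 7 remaining *Notch3-/-* mice lay between 18.3 and 24 CPM of *Ttr*, inside the *Notch3+/+* range of 14.1 to 318 CPM. DESeq2 at its default settings replaced the count of *Notch3-/-* replicate 8 as outlying for 9 of the 10 genes, and that of *Notch3+/+* replicate 5 for 3 of them, *Ttr* included. It then called 1 gene, *Ttr*, as lower (log2 fold change -0.85, adjusted p = 0.0285). With the outlying counts kept, DESeq2 gave 5.24 for *Ttr* with no adjusted p and called 0 of the 10. The direction for *Ttr* thus turned when *Notch3-/-* replicate 8 was left out. It also turned in a fit that kept all libraries and took the replicate number as a block, given in the last section.

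The comparison of TgNotch3R169C with WT mice asks what the mutant transgene changes. None of the 10 genes passed, where 0.113% of 17731 genes did. None had an unadjusted p under 0.05 with edgeR, where 1289 of the 17731 did. DESeq2 called none. All 10 log2 fold changes were negative (median -1.06, against -0.0074 over all genes), with 95% intervals that all included 0. The log2 fold change of *Ttr* was -1.35, with a 95% interval of -4.61 to 1.90 (edgeR adjusted p = 0.855). For *Kcnj13*, the gene with the narrowest interval, it was -0.43 (-1.0 to 0.15, adjusted p = 0.744). Without the libraries above 1000 CPM of *Ttr*, 6 TgNotch3R169C and 4 WT mice remained and none of the 10 genes passed, where 0.0111% of 18097 genes did. *Enpp2* alone of the 10 had an unadjusted p under 0.05, as did 1412 of all 18097 genes. It was at 257 to 330 CPM in the 6 mice and 325 to 392 CPM in the 4 (log2 fold change -0.27, SE 0.0795, edgeR adjusted p = 0.428). In those same 10 mice the log2 fold change of *Notch3* itself was 1.21 with an adjusted p of 0.0902, so this comparison is small.

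WT mice aged 12 months and *Notch3+/+* mice aged 3 months are both controls, and their age and their mouse line differ together and cannot be told apart. Of the 10 genes, 8 were higher in the WT mice with edgeR, where 7.92% of 17643 genes were called in either direction (683 higher and 715 lower). The median log2 fold change of the 10 was 3.95 (0.0026 over all genes). The genes were chosen with these levels known, and 4 of 8 WT libraries but no *Notch3+/+* library were above 1000 CPM of *Ttr*. The count of 8 and the p-values are therefore a description and support nothing. *Ttr* was higher by 6.54 (SE 1.37, adjusted p = 0.00959), *Sostdc1* by 5.93 (SE 1.02, adjusted p = 0.00288), *Slc4a5* by 5.79 (SE 1.15, adjusted p = 0.00680) and *F5* by 3.48 (SE 0.693, adjusted p = 0.00680). The 2 genes whose base level was the largest percentage of their mean CPM did not pass, *Kl* at 1.23 (SE 0.42, adjusted p = 0.0807) and *Kcnj13* at 0.57 (SE 0.205, adjusted p = 0.0928). Each group still overlapped the other: the 4 WT mice with little *Ttr* had 19.4 to 329 CPM, against 14.1 to 318 CPM in the *Notch3+/+* mice. The summed level of the 6 smooth muscle genes was 1259 to 1901 CPM in the WT and 2286 to 3975 CPM in the *Notch3+/+* mice, and its part in the result was not tested.

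Without the 4 WT libraries above 1000 CPM of *Ttr*, none of the 8 genes was called and only *Kl* passed, where 2.22% of 18086 genes did. *Kl* was at 126, 129, 131 and 171 CPM in the 4 remaining WT mice and 162 to 203 CPM (median 189) in the 8 *Notch3+/+* mice, so that 1 WT mouse reached into the *Notch3+/+* range. It fell by 0.41 on the log2 scale (95% interval -0.61 to -0.21, edgeR adjusted p = 0.0434), opposite in direction to its value with all 16 mice. With 1 further mouse left out at a time, the log2 fold change was -0.52 to -0.36 and the adjusted p 0.0186 to 0.141, under 0.05 in 4 of the 12 fits. The call was lost without *Notch3+/+* replicate 2, 4, 5, 6 or 7 and without WT replicate 1, 7 or 8. DESeq2 gave -0.40 with an adjusted p of 0.00190. TgNotch3R169C mice with little *Ttr* had 111 to 155 CPM of *Kl* (6 mice), below all 8 *Notch3+/+* mice, and the corresponding *Notch3-/-* mice had 93.5 to 195 CPM (7 mice), of which 2 lay within the *Notch3+/+* range. *Sostdc1*, next by unadjusted p, was at 1.21 to 4.96 CPM in the 4 WT mice against 0.104 to 1.48 CPM (log2 fold change 1.81, SE 0.488, edgeR adjusted p = 0.0715).

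**Figure D4:**
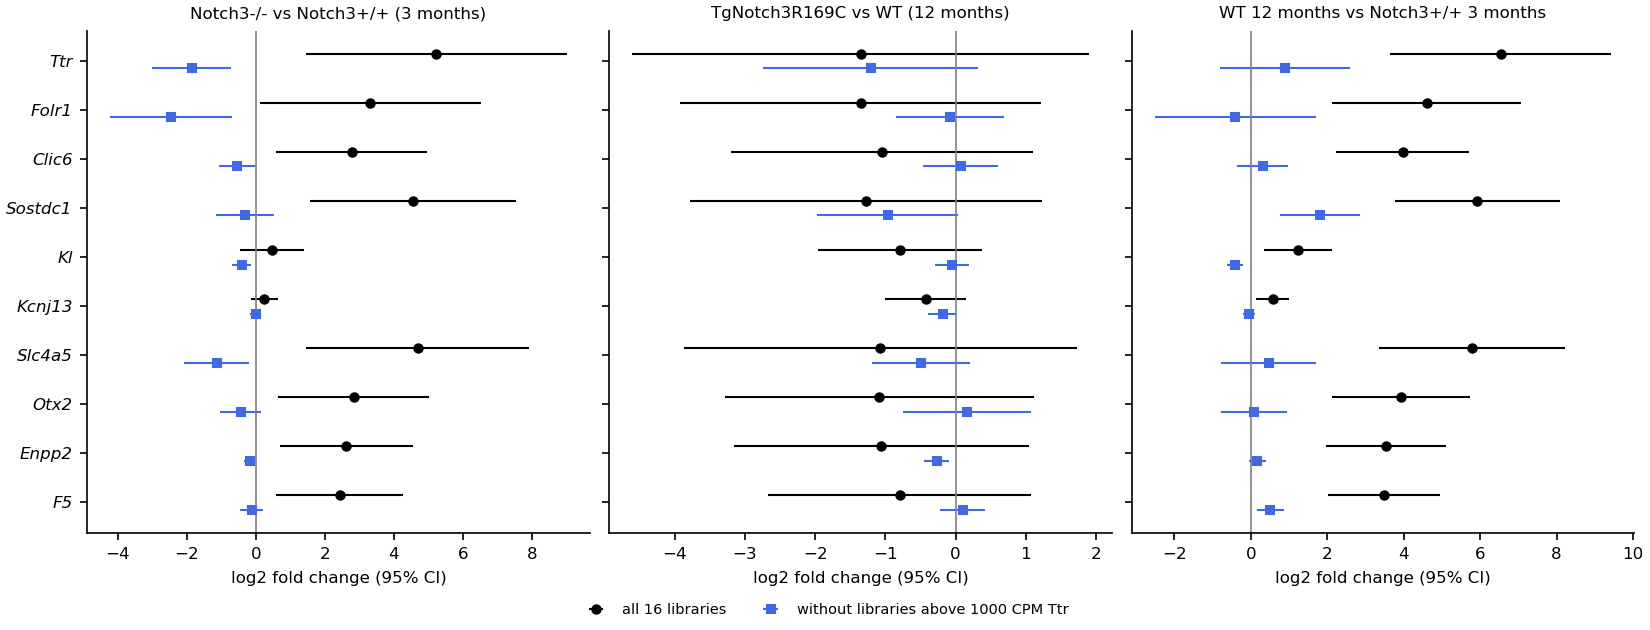
Log2 fold change with its 95% interval for the 10 genes in 3 comparisons (edgeR), black circles for all 16 libraries and blue squares without the libraries above 1000 CPM of *Ttr*. In the left panel every circle is above 0 and every square below it, and in the right panel the 8 genes called with all libraries move to between -0.41 and 1.81 without the 4 WT libraries.

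The members were also compared at equal *Ttr*, with log2 CPM of *Ttr* in each library as a covariate. This asks whether a gene differed between groups at the same level of *Ttr*. The slope on *Ttr* was free for each gene, so a fixed proportion to *Ttr* was not tested. The genes were chosen for varying with *Ttr*, so an absence of calls at equal *Ttr* supports nothing. No *Notch3+/+* library was above 318 CPM of *Ttr*, against 7871 to 23172 CPM in 4 WT libraries. Between the control groups, equal *Ttr* therefore rests on the fitted line. None of the 9 other genes passed in any comparison, where 0.807% of 17713 genes passed between *Notch3-/-* and *Notch3+/+* mice, 0.0395% of 17730 between TgNotch3R169C and WT mice and 1.39% of 17642 between the 2 control groups. The numbers of the 9 with an unadjusted p under 0.05 were 1, 0 and 2. Over all genes they were 1460 of 17713, 994 of 17730 and 2970 of 17642. DESeq2 called 0, 0 and 1 of the 9. Between the control groups, *Sostdc1* was 1.14 higher in WT mice at equal *Ttr* (SE 0.343, edgeR adjusted p = 0.112), and it passed with DESeq2 (1.17, adjusted p = 0.0107), with the 4 groups in 1 fit (0.95, adjusted p = 0.0457) and with *Folr1*, *Clic6* and *Kcnj13* as the covariate in place of *Ttr* (1.63, adjusted p = 0.0197). It did not pass with the replicate block (0.88, adjusted p = 0.290), with RLE normalization (adjusted p = 0.110), with no filter (0.128), with the robust fit (0.118) or in any of the 16 fits that left out 1 mouse (0.0694 to 0.341). The value of *Kl* was -0.55 (SE 0.244, edgeR adjusted p = 0.270). A straight line on the log scale is a poor description of genes with a base level, as *Kl*, *Kcnj13* and *Enpp2* have.

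Another 28 genes of the choroid plexus, listed from knowledge of the tissue, were read in the same libraries, and 19 of the 28 had all 7 libraries above all 25, as 2.26% of 18507 genes did. This list too was made with earlier results of these libraries known, so its counts here and below are a description. Among the 11 ion and solute transporters, *Kcne2*, a potassium channel subunit, was at 0.173 to 3.54 CPM against 70.3 to 233 CPM, and *Car12*, a carbonic anhydrase, at 0.523 to 15.1 CPM against 97.8 to 317 CPM. *Aqp1*, the water channel of the epithelium, was at 2.91 to 36.0 CPM against 55.3 to 152 CPM. By contrast *Slc13a4*, a sulfate transporter, was at 917 to 1362 CPM against 898 to 1282 CPM, and *Slc4a10*, a bicarbonate transporter, at 433 to 889 CPM against 568 to 787 CPM. The junction and keratin genes were mixed, with *Cldn2* at 3.27 to 9.33 CPM against 41.7 to 150.0 CPM, and *Cldn3* overlapping at 0 to 4.92 CPM against 2.17 to 4.48 CPM.

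Of the 9 secreted proteins, receptors and other genes, *Tmem72* was at 0.116 to 5.76 CPM in the 25 libraries and 104.6 to 476 CPM in the 7. *Prlr*, the prolactin receptor, was at 2.06 to 10.7 CPM against 76.0 to 373 CPM, and *Htr2c*, a serotonin receptor, at 2.15 to 13.9 CPM against 90.2 to 281 CPM. *Igf2*, a growth factor also made by leptomeninges, was at 112 to 195 CPM against 123 to 167 CPM, and *Igfbp2* at 886 to 1469 CPM against 1097 to 1594 CPM. The transcription factor *Lmx1a* was at 0.099 to 0.677 CPM against 5.6 to 22.9 CPM. Between the 2 control groups 14 of the 28 genes were higher in WT mice (median log2 fold change 1.54), where 7.92% of all 17643 genes were called in either direction. *Kcne2* was higher most, by 6.08 (SE 1.22, edgeR adjusted p = 0.00722). In both mutant comparisons 0 passed with edgeR, of 25 tested for *Notch3-/-* and 28 for TgNotch3R169C mice, with 9 and 2 at an unadjusted p under 0.05. Over all genes 0.649% and 0.113% passed, and 1363 of 17714 and 1289 of 17731 had an unadjusted p under 0.05. Without the libraries above 1000 CPM of *Ttr* the numbers called were 0, 0 and 1, where 0.549%, 0.0111% and 2.22% of all genes were called, the last being *Slc2a12*, a glucose transporter, which fell by 0.33 (SE 0.0571, edgeR adjusted p = 0.0171).

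**Figure D5:**
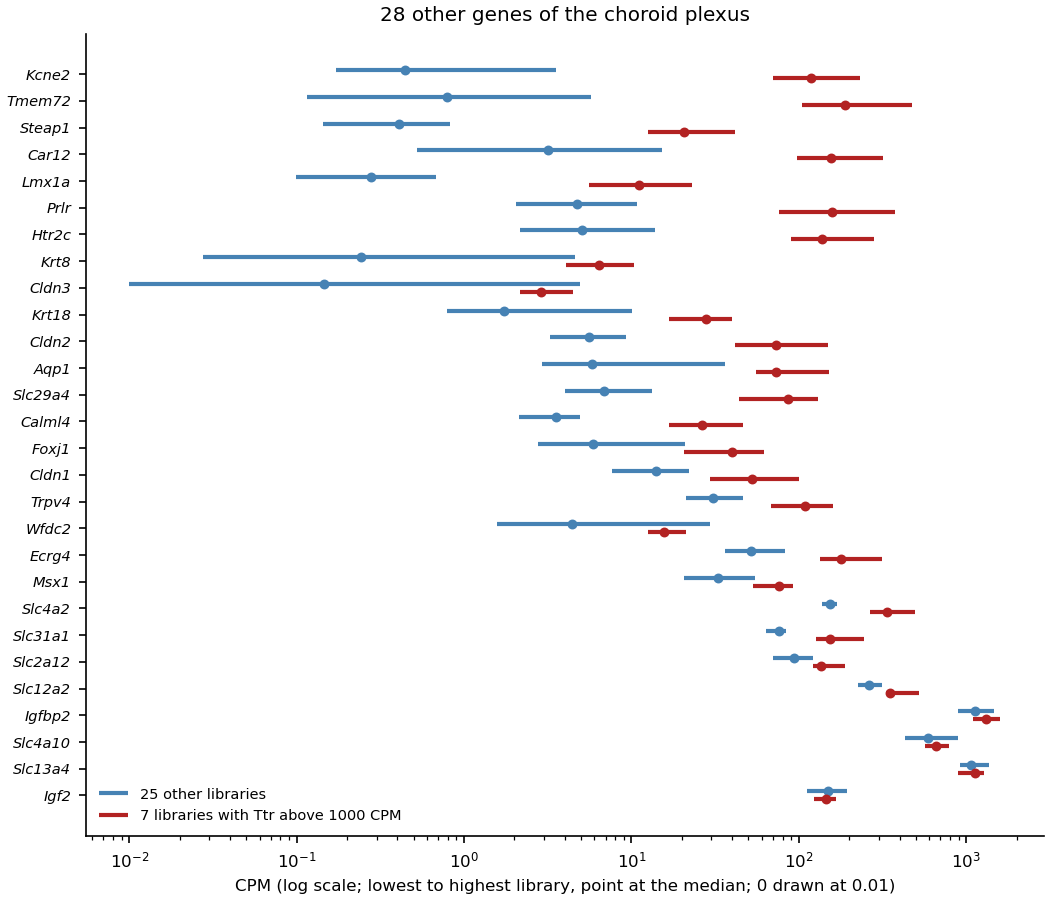
Range of CPM (log axis) of 28 other choroid plexus genes in the 25 libraries with little *Ttr* (blue) and the 7 with more than 1000 CPM (red), with points at the medians and genes ordered by the ratio of the medians. *Kcne2* and *Tmem72* show the widest separation, and the ranges of *Slc13a4*, *Slc4a10*, *Igfbp2* and *Igf2* overlap.

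The genes whose pattern was most like that of *Ttr* were found by Pearson's r of log2 CPM over the 32 libraries among 18507 genes. Those that were not among the 10 were *Kcne2* (r = 0.99), *Mfrp* (0.99), *Tmem72* (0.99), *Gm853* (0.97), *Wdr72* (0.97), *Cltrn* (0.97), *Drc7* (0.97), *Slc16a8* (0.97), *Col9a3* (0.96) and *Gm48898* (0.96). With *Ttr* itself as the first, *Slc4a5* ranked 4, *Sostdc1* 6, *Clic6* 7, *Folr1* 8, *Otx2* 15, *Enpp2* 16, *F5* 25, *Kl* 126 and *Kcnj13* 354. The measure rests mainly on the 7 libraries. *Mfrp*, a membrane frizzled-related protein, was at 0.193 to 3.81 CPM in the 25 libraries and 78.9 to 256 CPM in the 7, and *Col9a3*, a collagen chain, at 5.09 to 15 CPM and 111 to 280 CPM.

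Markers of other cells did not separate the same libraries as a list. *Plvap*, of fenestrated endothelium, was at 5.35 to 15.2 CPM (median 7.34) in the 7 libraries and 2.25 to 58.6 CPM (median 3.90) in the 25. The sum of 5 ependymal genes was 33.1 to 56.7 CPM against 27.6 to 60.7 CPM. Of the 5, *Dynlrb2*, a dynein light chain, had the largest ratio of medians, at 2.22 to 8.45 CPM (median 6.73) against 0.170 to 2.83 CPM (median 0.891). The medians of *Tmem212* (0.526 against 0.174 CPM), *Ccdc153* (1.74 against 0.955 CPM) and *Mia* (0.996 against 0.621 CPM) were also higher in the 7, with overlapping ranges. That of *Rarres2*, which made up most of the sum, was not (32.4 against 33.2 CPM). The sum of 6 leptomeningeal fibroblast genes was 33490 to 52311 CPM in the 7 and 39944 to 56023 CPM in the 25. *Ptgds* made up most of that sum, at 31159 to 49097 CPM against 36695 to 52539 CPM. Each of the other fibroblast genes also had overlapping ranges, such as *Dcn* at 673 to 1091 CPM against 820 to 1350 CPM. The sum of 6 smooth muscle genes was 1014 to 1895 CPM against 1392 to 3975 CPM. The endothelial sum of 4 genes was 1014 to 1361 CPM against 1153 to 1602 CPM. The part of these cells in the results was not tested.

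Brain tissue was present in both sets, with neuron sums (6 genes) of 168 to 868 CPM in the 7 libraries and 160 to 843 CPM in the 25. The astrocyte sums (4 genes) were 1260 to 1768 CPM against 950.3 to 1963 CPM, and the oligodendrocyte sums (4 genes) 895 to 1309 CPM against 358 to 1743 CPM. The pineal gland also expresses *Otx2*, and its genes *Crx*, *Asmt*, *Aanat* and *Tph1* were at most 0.0207, 0.197, 0.473 and 0.906 CPM in the 7 libraries. In the 25 they reached 2.37, 1.52, 0.605 and 17.7 CPM. Pituitary genes varied widely and apart from *Ttr*, with *Prl* at 0.0389 to 468 CPM in the 7 and 0 to 5770 CPM in the 25.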

How the data were processed

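RNA sequencing of brain arteries from 32 mice (8 in each of 4 groups) was used. Whole-number counts of reads on each Ensembl gene, not normalized, were deposited by the authors. The submitters' processing notes name bcl2fastq 2.20.0.422, cutadapt 1.10, Bowtie2 2.2.8, STAR 2.5.3a, HTSeq 0.6.1p1 and the build mm39. All 32 columns were matched to mice by their labels, and 52081 of 55357 identifiers were given a symbol. No 2 libraries of a group were duplicates.

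In R 4.3.3, edgeR 4.0.16 compared 2 groups at a time by its quasi-likelihood test (glmQLFit, glmQLFTest), after filterByExpr and TMM scaling, with Benjamini-Hochberg adjustment over all genes tested and a threshold of 0.05. The same fits were made with log2 CPM of *Ttr* as a covariate. Standard errors hold counting error and the spread between mice. DESeq2 1.42.0 was an alternative. The scripts were tested on simulated data.

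The 10 genes, the other lists and the comparisons were chosen with earlier results of these data known. Genes named are the 10, *Notch3*, the listed genes and the 10 others most correlated with *Ttr*. Leaving out the libraries above 1000 CPM of *Ttr* was chosen after seeing the data. Promoters came from RefSeq (GRCm38.p6), and promoters on 1 chromosome were not used.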

Additional observations from a re-analysis of the deposited data

Results flagged for a closer look

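In each group of 8 mice the highest and lowest mouse were compared with the nearest of the others, as the gap divided by the range of the group (critical value 0.526). Of 44 such groups 15 passed. Chance alone passes about 1 in 20 groups, or 2.2 of 44, but the 10 genes were chosen with these levels known, so the 15 cannot be read against it. The libraries are the same for the 10 genes, so the passes are not independent of each other.

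*Notch3-/-* replicate 8 stood above the other 7 *Notch3-/-* mice for all 10 genes. The ratio was 1.0 for *Ttr* (22553 CPM, next mouse 24), 0.996 for *Folr1* (151, next 0.699), 0.993 for *Clic6*, 0.994 for *Sostdc1* and 0.998 for *Slc4a5*. It was 0.982 for *Otx2*, 0.995 for *Enpp2*, 0.985 for *F5*, 0.897 for *Kl* and 0.805 for *Kcnj13* (263, next 119).

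*Notch3+/+* replicate 5 stood above the other *Notch3+/+* mice for *Ttr* (ratio 0.785, 318 CPM, next mouse 79.5), *Folr1* (0.805, 10.3 CPM, next 2.06) and *Slc4a5* (0.726, 4.51 CPM, next 1.49), but not for the other 7 genes. WT replicate 4 stood above the other WT mice for *Kcnj13* (0.548, 295 CPM, next 184). TgNotch3R169C replicate 3 had the lowest *Notch3* of its group (0.532, 107.6 CPM, next 169).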

How the results depend on the processing

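In *Notch3-/-* against *Notch3+/+* mice the direction of the log2 fold changes depended on the setting. DESeq2, which by default replaced the count of *Notch3-/-* replicate 8 for these 9 genes, gave -0.85 for *Ttr*, the 1 gene it called, -0.97 for *Folr1*, -0.53 for *Clic6*, -0.30 for *Sostdc1*, -0.38 for *Kl*, -0.53 for *Slc4a5*, -0.42 for *Otx2*, -0.17 for *Enpp2* and -0.12 for *F5*. With outlying counts kept (chosen after seeing the data), all 10 values were positive with DESeq2, 0.25 for *Kcnj13* to 5.24 for *Ttr*, and 0 were called. The fit with the replicate number as a block gave -0.77 for *Ttr*, -0.85 for *Folr1*, -0.0074 for *Clic6*, -0.16 for *Kl* and -0.016 for *Slc4a5*, and the cause was not tested. With 1 mouse left out at a time, the ranges were -1.86 to 6.14 for *Ttr*, -2.46 to 4.68 for *Folr1*, -0.56 to 2.98 for *Clic6*, -0.32 to 4.78 for *Sostdc1*, -0.41 to 0.62 for *Kl*, -0.0087 to 0.32 for *Kcnj13*, -1.14 to 5.22 for *Slc4a5*, -0.44 to 3.04 for *Otx2*, -0.18 to 2.82 for *Enpp2* and -0.13 to 2.63 for *F5*. The negative end of each was the fit without *Notch3-/-* replicate 8, which is also the fit without libraries above 1000 CPM of *Ttr*.

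Without those libraries, TgNotch3R169C against WT gave 0.072 for *Clic6*, 0.16 for *Otx2* and 0.099 for *F5*, and 1.21 for *Notch3* (adjusted p = 0.0902). Between the control groups it gave -0.41 for *Folr1*, -0.41 for *Kl* and -0.049 for *Kcnj13*, and the number of the 10 genes called went from 8 to 1. The number was 2 with the replicate block (*Sostdc1* and *Slc4a5*), 7 with the 4 groups in 1 fit, 10 with DESeq2 and 8 or 9 with 1 mouse left out, *Kl* being the ninth without WT replicate 1, 7 or 8 (adjusted p 0.0465 to 0.0494). At equal *Ttr* the number was 1 with DESeq2, 1 with the 4 groups in 1 fit and 1 with the 3-gene covariate, against 0. Same-numbered mice correlated at -0.301 to 0.444, with 3 or 4 of 8 pairs over 0.1, so the numbers were not taken as pairs.

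Over all genes, 115, 20 and 1398 were called in the 3 comparisons with edgeR, 278, 79 and 2266 with DESeq2, 97, 6 and 715 with the replicate block, and 98, 2 and 402 without the libraries above 1000 CPM of *Ttr*. With the 4 groups in 1 fit 174 were called in *Notch3-/-* mice. With 1 mouse left out the numbers were 78 to 141, 11 to 26 and 895 to 1621. At equal *Ttr* 143, 7 and 246 were called with edgeR, 293, 55 and 713 with DESeq2, 195, 19 and 631 with the 4 groups in 1 fit, 101, 3 and 0 with the block, and 129, 18 and 305 with the 3-gene covariate. RLE normalization gave 12 for TgNotch3R169C mice, and leaving out 1 mouse gave 55 to 152, 4 to 12 and 21 to 454. Counts under 20 for *Folr1* and *Sostdc1* limit what can be read from single low libraries.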
